A study of Mus musculus with 18 samples.

Results

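The 10 genes described here encode molecular chaperones: Hspa1a, Hspa1b, Hsp90aa1, Dnajb1, Hsph1 and Hspb1, which act in the cytosol and are induced by heat shock, Hspa8, the constitutive cytosolic Hsp70, and Hspa5, Hsp90b1 and Pdia4, which act in the lumen of the endoplasmic reticulum (ER). They were chosen by name, as a list of chaperone symbols, and each was mapped to its Ensembl identifier. They are 10 of the 38561 genes counted in the frontal cortex, striatum and hippocampus of WT and Pcm1-/- mice. All 10 were among the 17545 genes with enough counts to be tested.

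Positions are on GRCm38. Hspa1a (ENSMUSG00000091971, chr17:34969190-34972156) and Hspa1b (ENSMUSG00000090877, chr17:34956436-34959238) are neighbours on the minus strand. Hsp90aa1 (ENSMUSG00000021270) is at chr12:110690605-110702728, Dnajb1 (ENSMUSG00000005483) at chr8:83608193-83612653, Hsph1 (ENSMUSG00000029657) at chr5:149614287-149636376, Hspb1 (ENSMUSG00000004951) at chr5:135887919-135889563 and Hspa8 (ENSMUSG00000015656) at chr9:40800984-40810087. Hspa5 (ENSMUSG00000026864) is at chr2:34771970-34777547, Hsp90b1 (ENSMUSG00000020048) at chr10:86690209-86705509 and Pdia4 (ENSMUSG00000025823) at chr6:47796141-47813430. Values are summed over the exons of each gene, and no other annotated gene overlaps any of them.

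Chaperones bind unfolded or partly folded proteins and release them for folding, refolding or degradation. In the cytosol, the Hsp70 and Hsp90 machines take up clients with the help of J-domain cochaperones such as Dnajb1, and unfolded protein frees the transcription factor HSF1 to switch on the heat-inducible genes through heat shock elements. In the ER, unfolded protein activates the sensors ATF6, IRE1 and PERK, and ATF6 and XBP1 raise Hspa5, Hsp90b1 and Pdia4 through ER stress elements. Neurons are known for a high level of the constitutive Hsp70 and a weak induction of the heat-inducible one.

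Polyadenylated RNA was sequenced from snap-frozen tissue of adult littermates on the C57 Bl6J strain, WT or homozygous for a gene-trap insertion in Pcm1, which encodes a protein of the centriolar satellites. The trap came from 1 line of E14Tg2a.4 embryonic stem cells and is present in every cell of the mutant. The mice had been backcrossed to this strain for at least 3 generations. Each of the 6 groups (WT and Pcm1-/- frontal cortex, striatum and hippocampus) holds 3 libraries. The 3 WT and 3 mutant animals each gave all 3 regions, so that libraries of different regions share their animal.

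Pcm1 itself, which checks the labels, fell in the mutant libraries of every region. Its log2 fold change was −3.46 ± 0.087 (SE, n = 3 per genotype) for frontal cortex, −3.29 ± 0.077 for striatum and −3.51 ± 0.080 for hippocampus, with edgeR adjusted p-values of 4.6e-07, 1.5e-06 and 2.3e-06. Libraries held 24950537 to 33405081 counts on genes, which is 86.8% to 89.2% of the reads in the files. The summed level of 4 or 5 marker genes per region was highest in the region they mark in every library (striatum 4643 to 6168 CPM, against 85.3 to 184 in the other two). CPM are counts scaled to a common library size and composition. Of 4 Y-linked genes, 1 WT and 1 mutant animal, both numbered 2 here, had 2988 to 4306 counts per library and the other 4 animals at most 5. Choroid plexus and ependymal markers (Ttr, Folr1, Kl and Foxj1, none at 0 in any library) summed to 5869 CPM in the striatum library of WT animal 2 against 28.1 to 167 in the other 5 striatum libraries, and to 221 to 6145 CPM in the hippocampus. Lane and genotype cannot be told apart for the striatum, whose WT samples ran in lane 5 and whose Pcm1-/- samples ran in lanes 3 and 4.

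The sequences upstream of the genes are shown because heat shock and ER stress elements are the known switches of these families. Of the 10 genes, 8 had an entry in the RefSeq promoter table (GRCm38.p6), a window of 250 bases before to 50 bases after the start, and Hsp90aa1 and Hspa8 did not. Windows were searched on both strands for a heat shock element of a pair of units (GAA and TTC, or TTC and GAA, with 2 bases of any kind between them) and for the ER stress element (CCAAT and CCACG with 9 bases of any kind between them). The first was found in 12.8% of all 32851 promoter windows and the second in 0.113% of them (37 windows). Matches are in capitals below, and each run is upstream of the annotated gene, 5′ to 3′ on the gene's strand.
Hspa1a, minus strand, chr17:34972157-34972406: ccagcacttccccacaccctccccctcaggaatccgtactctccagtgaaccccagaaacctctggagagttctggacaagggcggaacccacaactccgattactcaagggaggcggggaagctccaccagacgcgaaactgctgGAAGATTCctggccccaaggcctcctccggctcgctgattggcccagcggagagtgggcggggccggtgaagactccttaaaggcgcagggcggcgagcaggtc
Hspa1b, minus strand, chr17:34959239-34959488: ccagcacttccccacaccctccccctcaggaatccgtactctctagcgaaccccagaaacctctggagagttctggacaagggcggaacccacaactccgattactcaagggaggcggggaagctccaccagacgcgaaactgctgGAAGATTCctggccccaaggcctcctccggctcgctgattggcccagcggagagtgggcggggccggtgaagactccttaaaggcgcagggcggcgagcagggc
Hspb1, plus strand, chr5:135887669-135887918: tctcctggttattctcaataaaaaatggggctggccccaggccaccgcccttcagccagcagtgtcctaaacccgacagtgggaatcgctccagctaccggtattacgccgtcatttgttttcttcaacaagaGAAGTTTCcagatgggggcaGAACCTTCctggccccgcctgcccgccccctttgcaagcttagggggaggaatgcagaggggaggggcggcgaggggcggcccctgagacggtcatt
Hsp90b1, minus strand, chr10:86705510-86705694: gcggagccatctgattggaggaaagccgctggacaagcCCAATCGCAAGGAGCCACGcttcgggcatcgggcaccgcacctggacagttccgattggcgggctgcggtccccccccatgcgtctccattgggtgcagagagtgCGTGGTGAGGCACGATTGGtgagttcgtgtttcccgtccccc

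The Hspa1a and Hspa1b runs were identical at 247 of 250 positions, and both held GAAGATTC 104 to 97 bases before the start. Hspb1 held a pair of heat shock elements and Hsph1 held 1, TTCTCGAA at chr5:149636362-149636369, inside the annotated gene. Dnajb1 had no match in its windows. A heat shock element of 3 units was found in 0.466% of all windows and in none of the members. ER stress elements stood 212 to 194 and 107 to 89 bases before the RefSeq start of Hsp90b1, the second on the other strand. Hspa5 held 1, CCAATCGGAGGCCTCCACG at chr2:34772025-34772043, 65 to 47 bases before its RefSeq start and inside the longer gene annotated by GENCODE. Pdia4 had no exact match. Of 17 other genes of ER folding and degradation with a window, 7 held the element (Calr, Canx, Creld2, Derl3, Dnajc3, Pdia6 and Syvn1). These are matches of letters, and no binding was measured.

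The level of the members spanned a wide range in all regions. Per transcript length (TPM, mean of 18 libraries), Hsp90b1, the ER Hsp90, was highest at 290, followed by Hspa8 at 235, Hspa5 (BiP, the ER Hsp70) at 226, Hsp90aa1 (inducible cytosolic Hsp90) at 179 and Hsph1 (Hsp110, a nucleotide exchange factor of Hsp70) at 171. Pdia4, a disulfide isomerase of the ER, reached 77.2 TPM and Dnajb1, an Hsp40 cochaperone, 68.8 TPM. The inducible Hsp70 genes Hspa1b and Hspa1a were at 6.18 and 4.15 TPM, and Hspb1 (Hsp25, a small heat shock protein) at 3.24 TPM. Hspb1 rested on 16 to 36 reads per library, Hspa1a on 21 to 164 and Hspa1b on 21 to 262, whereas the other members had at least 921. Only reads with a single position were counted, so genes with near-identical copies are undercounted on every scale. Of the 50-base words in the transcripts, 33.7% were unique to Hspa1a and 37.7% to Hspa1b, and the pair shared most of the rest with each other. The unique share was 49.9% for Hspb1 and 52.5% for Hsp90aa1, which share words with Hsp25-ps1 and Gm12346, 60.6% for Hspa8, 90.2% for Hsp90b1 and at least 99.6% for the other 4.

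**Figure D1:**
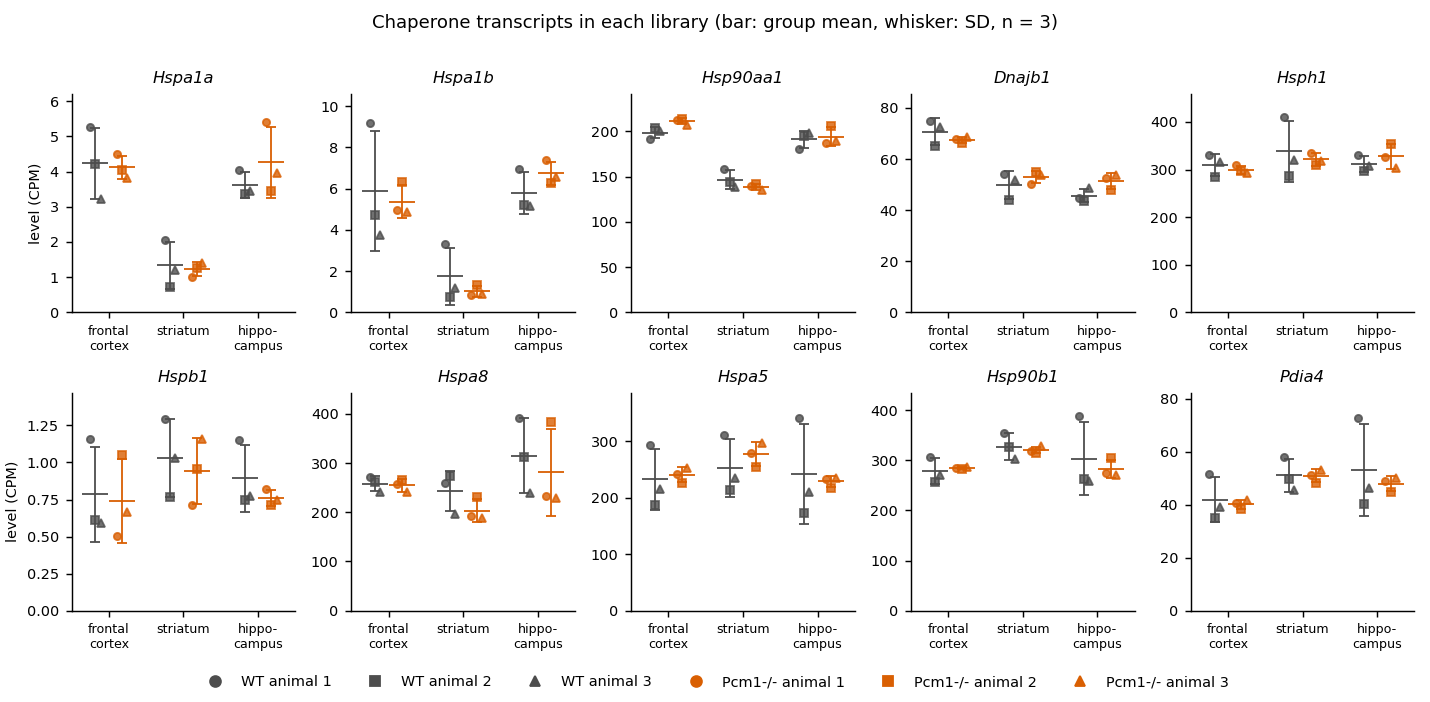
Level of the 10 chaperone genes in CPM (vertical axes, from 0) in each of the 18 libraries, by region (horizontal axes) and genotype, with the group mean and SD of 3 libraries and 1 symbol per animal. WT and Pcm1-/- values interleave in nearly all panels, Hspa1a and Hspa1b are lowest in the striatum, and the circle of WT animal 1 is the highest WT symbol in all 3 regions for 7 genes.

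The first comparison asked whether loss of Pcm1 changed chaperone transcripts. None of the 10 genes passed an edgeR adjusted p of 0.05 in the frontal cortex, the striatum, the hippocampus or the counts summed over the 3 regions of each animal. Of all 17545 genes, 1.74%, 0.0285%, 0.0171% and 1.39% did. At an unadjusted p under 0.05 the members also numbered 0 in all 4 comparisons, against 15.3%, 13.5%, 9.89% and 17.2% of all genes, and DESeq2 called 0 members in each. The median log2 fold change of the members was −0.05 for frontal cortex, −0.08 for striatum and −0.05 for hippocampus, and that of all genes tested lay between −0.0066 and −0.00033. In tissue RNA, fewer cells of a type and less RNA per cell cannot be told apart, and a change within the intervals given below could have been missed with 3 libraries per genotype.

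Among the heat-inducible genes, Hspa1b in the striatum had the most uncertain difference. In the striatum it measured 3.31 CPM in WT animal 1, 0.733 in WT animal 2 and 1.18 in WT animal 3, and 0.857, 1.34 and 0.904 CPM in mutant animals 1 to 3. The WT library that is high lies above all the others, and the remaining 5 overlap. The log2 fold change of −0.74 ± 0.52 (SE) had a 95% interval from −1.94 to 0.46 and an edgeR adjusted p of 0.580. Without WT animal 1 it was 0.13. In the hippocampus the 3 WT libraries gave 6.97, 5.21 and 5.17 CPM and the mutant ones 7.37, 6.29 and 6.55, with a log2 fold change of 0.20 ± 0.17 (adjusted p = 0.702).

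Hsp90aa1 in the frontal cortex was the only member whose genotypes did not overlap within a region, a state that 21.3% of all genes were in there, 19% in the striatum and 17.1% in the hippocampus. WT libraries had 192, 203 and 200 CPM and mutant libraries 213, 214 and 207 CPM. Every mutant value was higher, but the log2 fold change was 0.08 ± 0.050 (interval −0.03 to 0.20), and it did not pass the test (edgeR adjusted p = 0.471). In the striatum its log2 fold change was −0.08 and in the hippocampus 0.0041. The share of counts from mitochondrially encoded genes did not overlap between these frontal cortex libraries either, at 4.05% to 5.65% in WT and 3.20% to 3.56% in mutant libraries. Its correlation with Hsp90aa1 over these 6 libraries (r = −0.88) is given with its test below, and its part in the genotype difference was not tested.

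Dnajb1 and Hsph1 had a smaller SE in each region than Hspa1a, Hspa1b and Hspb1. For Dnajb1 the log2 fold changes were −0.07 ± 0.062 for frontal cortex, 0.09 ± 0.088 for striatum and 0.15 ± 0.085 for hippocampus. For Hsph1 all 3 lay between −0.07 and 0.05, and its widest interval was −0.36 to 0.21 (striatum). Hspa1a differed by −0.05, −0.11 and 0.22, and Hspb1 by −0.10, −0.13 and −0.24, with intervals that reach from −0.95 to 0.75 for these scarce transcripts.

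Hspa8 had the smallest p of the members in the striatum. WT libraries there had 259, 273 and 197 CPM for animals 1 to 3 and mutant libraries 192, 230 and 188 CPM. The third WT animal lies within the mutant range. The log2 fold change was −0.26 ± 0.13 (interval −0.56 to 0.05, unadjusted p = 0.0888, edgeR adjusted p = 0.443), and it was −0.03 for frontal cortex and −0.18 for hippocampus.

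The ER chaperones passed the genotype test in no region, and their intervals in the hippocampus were wide. These ran from −0.62 to 0.43 for Hspa5, −0.48 to 0.25 for Hsp90b1 and −0.64 to 0.31 for Pdia4. Hspa5 in the hippocampus had 342, 173 and 210 CPM in WT animals 1 to 3 and 234, 217 and 236 CPM in the mutants. The mutant values lie between the extremes of the WT values. Its log2 fold change was −0.09 ± 0.23, and 0.04 ± 0.14 for frontal cortex and 0.13 ± 0.14 for striatum. Hsp90b1 gave 0.02, −0.03 and −0.12 and Pdia4 −0.07, −0.0030 and −0.16, in the order frontal cortex, striatum, hippocampus, all with adjusted p-values of at least 0.805. The genotype effect did not differ detectably between regions. In the interaction test 0 members and 0% of all genes passed the adjusted threshold with edgeR, 0 members and 7.89% of all genes had an unadjusted p under 0.05, and DESeq2 called 155 genes, none of them a member. The smallest p of this joint test was that of Dnajb1 (0.0501, adjusted p = 0.635). Of the region pairs taken singly, the genotype effect on Dnajb1 was higher in the hippocampus than in the frontal cortex by log2 0.24 (interval 0.05 to 0.43, edgeR unadjusted p = 0.0179, adjusted p = 0.538). For Hspa1b it was lower in the striatum than in the hippocampus by log2 −0.82 (unadjusted p = 0.0499, adjusted p = 0.862), and the other 28 of these values had an unadjusted p above 0.05.

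**Figure D2:**
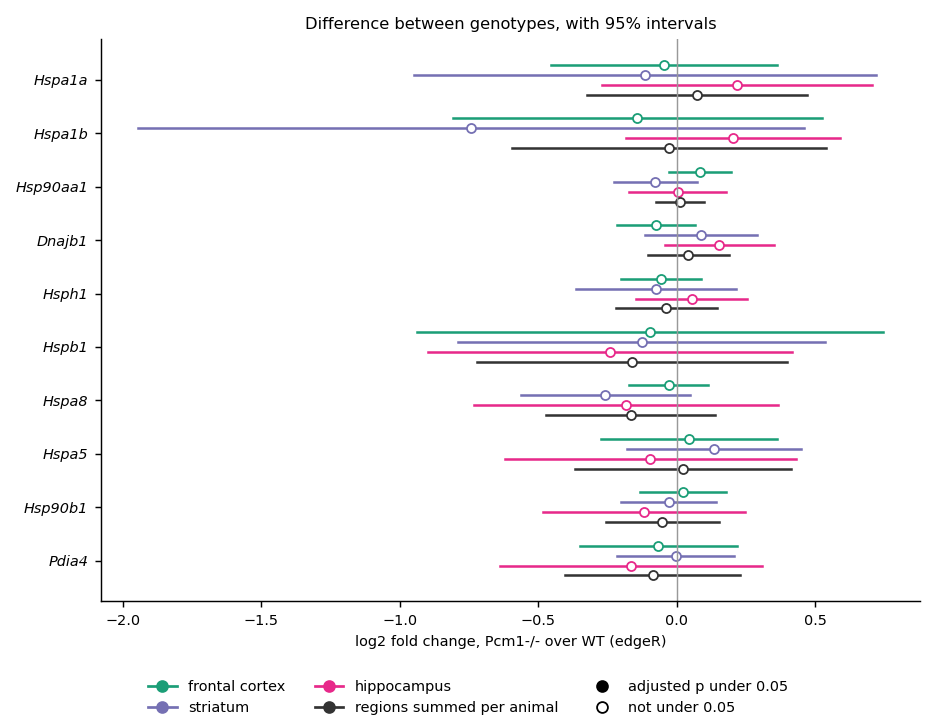
Log2 fold change of Pcm1-/- over WT (horizontal axis, edgeR) with its 95% interval for each gene in the 3 regions and in counts summed per animal. All points are open, since no adjusted p was under 0.05, every interval includes 0, and the widest is Hspa1b in the striatum (−1.94 to 0.46).

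The second comparison was between regions, within the 6 animals. The inducible Hsp70 genes had the largest differences, and both were lowest in the striatum. Hspa1b had a lowest, median and highest level of 0.733, 1.04 and 3.31 CPM in the striatum, 3.76, 4.90 and 9.17 CPM for frontal cortex and 5.17, 6.42 and 7.37 CPM for hippocampus. No striatum library reached the lowest library of either other region. The striatum was 4.20-fold lower than the frontal cortex (log2 −2.07 ± 0.20, edgeR adjusted p = 3.4e-07, n = 6) and 4.89-fold lower than the hippocampus (log2 −2.29 ± 0.20, adjusted p = 1.4e-07). Hspa1a had 0.733, 1.24 and 2.05 CPM in the striatum, 3.21, 4.13 and 5.25 CPM for frontal cortex and 3.37, 3.70 and 5.39 CPM for hippocampus. These ranges do not overlap with the striatum either, and the striatum was 3.28-fold and 3.11-fold lower (log2 −1.71 ± 0.16 and −1.64 ± 0.16, adjusted p = 2.4e-07 and 5.5e-07). Between frontal cortex and hippocampus neither gene passed the test (edgeR adjusted p = 0.314 for Hspa1b and 0.680 for Hspa1a). Hspa1b passed there without WT hippocampus 1 (log2 0.39, 0.0392).

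Hsp90aa1, the inducible Hsp90, was also lowest in the striatum, by a smaller amount. Its lowest, median and highest levels were 135, 141 and 158 CPM in the striatum, 180, 192 and 206 CPM in the hippocampus and 192, 205 and 214 CPM in the frontal cortex. The striatum was lower by log2 −0.52 ± 0.047 than the frontal cortex and by log2 −0.43 ± 0.047 than the hippocampus, without overlap. Hippocampus and frontal cortex did not pass the test for Hsp90aa1 (edgeR adjusted p = 0.115, but 0.0313 without WT striatum 2). Dnajb1 instead was highest in the frontal cortex, with 64.9, 68.1 and 74.8 CPM, against 43.8, 52.7 and 55.0 CPM in the striatum and 43.6, 48.4 and 53.7 CPM in the hippocampus. The frontal cortex did not overlap with either, with log2 differences of −0.43 ± 0.052 for the striatum and −0.51 ± 0.052 for the hippocampus (edgeR adjusted p = 3.2e-06 and 9.6e-07). Striatum and hippocampus did not pass the test for Dnajb1 (log2 0.08 ± 0.052, edgeR adjusted p = 0.198).

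Hspa8 was lowest in the striatum, with 188, 214 and 273 CPM, and reached 240, 260 and 272 CPM for frontal cortex and 228, 276 and 393 CPM for hippocampus. All 3 ranges overlap. The difference of striatum and hippocampus (log2 −0.40 ± 0.088, adjusted p = 0.00118) passed the test, and that of striatum and frontal cortex (log2 −0.22 ± 0.088, adjusted p = 0.0388) was lost in 8 of the 18 fits that leave out 1 library, with an adjusted p of up to 0.125 (WT striatum 1 or 2, Pcm1-/- striatum 1, 2 or 3, WT frontal cortex 3, Pcm1-/- frontal cortex 1 or 3, all by replicate number). Hippocampus and frontal cortex did not pass for Hspa8 (log2 0.18 ± 0.088, adjusted p = 0.0914), except without mutant frontal cortex 1 (0.0363). Hsph1 and Hspb1 passed in no comparison of all libraries, with log2 differences of striatum over frontal cortex of 0.11 ± 0.054 and 0.38 ± 0.17 (adjusted p = 0.0851 and 0.0590). Hsph1 passed without mutant striatum 2 (0.0434) or mutant hippocampus 2 (0.0462), and Hspb1 without mutant frontal cortex 2 (0.0128) or mutant hippocampus 1 or 2 (0.0482 and 0.0498).

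All 3 ER chaperones were higher in the striatum than in the frontal cortex, and Hspa5 and Hsp90b1 also than in the hippocampus, by small amounts. Hspa5 had 213, 267 and 311 CPM there, 188, 235 and 294 CPM for frontal cortex and 173, 226 and 342 CPM for hippocampus, and Hsp90b1 had 302, 323 and 355, 257, 284 and 308, and 259, 273 and 388 CPM. The ranges overlap for both. Within animals, WT animal 1 had less of both in the striatum than in the hippocampus, and the other 5 animals had more. Striatum over frontal cortex gave log2 0.17 ± 0.052 for Hspa5, 0.20 ± 0.056 for Hsp90b1 and 0.32 ± 0.059 for Pdia4 (edgeR adjusted p = 0.0110, 0.00535 and 0.000224). Striatum over hippocampus gave 0.19 ± 0.052 for Hspa5 and 0.15 ± 0.056 for Hsp90b1 (adjusted p = 0.00594 and 0.0294). The latter was lost in 8 of 18 fits without 1 library (WT striatum 1 or 3, Pcm1-/- striatum 1 or 3, WT hippocampus 2 or 3, Pcm1-/- hippocampus 1 or 3), with an adjusted p of up to 0.0760. Pdia4 did not differ detectably there (log2 0.03 ± 0.059, adjusted p = 0.655, interval −0.09 to 0.16). Without WT animal 1, an alternative chosen after seeing the data, this difference was log2 0.12 (adjusted p = 0.0413), and with WT libraries alone it was log2 −0.01 (adjusted p = 0.942). It was higher in the hippocampus than in the frontal cortex, by log2 0.29 ± 0.059 (adjusted p = 0.000797).

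In all, 8 members passed for striatum and frontal cortex, 3 higher and 5 lower in the striatum, where 66% of all genes passed (33.5% higher and 32.5% lower). Dnajb1 (lower) and Pdia4 (higher) passed for hippocampus against frontal cortex, where 56.7% did (28.5% higher and 28.2% lower), and 6 members for striatum against hippocampus, 2 higher and 4 lower, where 57.1% did (28.3% higher and 28.7% lower). With only 10 genes, the first count is somewhat above its background, the second below it and the last close to it. Regions without overlap were seen for 4, 1 and 3 members and for 41.7%, 27.8% and 28.4% of all genes. The median absolute log2 difference of all genes was 0.37, 0.28 and 0.29. Members beyond it were Hspa1a, Hspa1b, Hsp90aa1, Dnajb1 and Hspb1 for striatum and frontal cortex, Dnajb1 and Pdia4 for hippocampus and frontal cortex, and Hspa1a, Hspa1b, Hsp90aa1 and Hspa8 for striatum and hippocampus. Without the animal block, Hspa8 and Hspa5 for striatum and frontal cortex (edgeR adjusted p = 0.194 and 0.340), Hspa5 and Hsp90b1 for striatum and hippocampus (0.337 and 0.169) and Pdia4 for hippocampus and frontal cortex (0.0504) did not pass. With WT libraries alone, 5 members and 8446 of 17545 genes passed for striatum and frontal cortex, and Hspa8, Hspa5 and Hsp90b1 did not. For striatum and hippocampus 4 members and 6160 genes then passed, and Hspa5 and Hsp90b1 did not (edgeR adjusted p = 0.354 and 0.307). With mutant libraries alone, 8 and 6 members passed for these comparisons, among 9887 and 8276 genes.

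**Figure D3:**
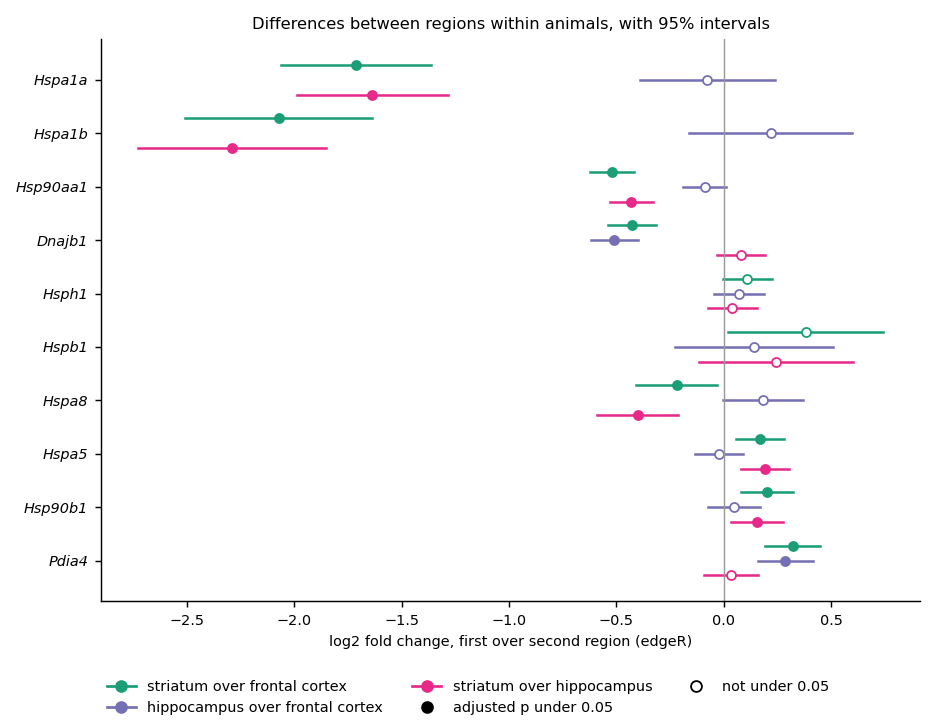
Log2 difference between regions within animals (horizontal axis, edgeR) with its 95% interval for each gene, filled where the adjusted p was under 0.05. Hspa1a and Hspa1b stand apart at log2 −1.64 to −2.29 for both comparisons with the striatum, Dnajb1 is lower in striatum and hippocampus than in the frontal cortex, and the ER genes lie at small positive values for the striatum.

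The members also varied between animals of 1 genotype. WT animal 1 (replicate 1 in frontal cortex and hippocampus, replicate 2 in the striatum) was the highest of the 3 WT animals in all 3 regions for 7 of 10 members: Hspa1a, Hspa1b, Hsph1, Hspb1, Hspa5, Hsp90b1 and Pdia4. Of all genes tested, 8.79% were highest in that animal in all 3 regions, and WT animals 2 and 3 were so for 0 members each. The animal was chosen after its values were seen, and no test was made. Relative to the mean of the WT group on a log scale, Hspa5 was 1.28-fold, 1.25-fold and 1.48-fold in the frontal cortex, striatum and hippocampus of WT animal 1, Pdia4 was 1.25-fold, 1.14-fold and 1.42-fold, and Hspa1b was 1.67-fold, 2.25-fold and 1.21-fold. Hsp90aa1 was 0.968-fold, 1.08-fold and 0.945-fold, the lowest WT value in the frontal cortex and hippocampus. In CPM, Hspa5 read 294, 311 and 342 in that animal, above 173 to 235 in the other 6 WT libraries. Mutant libraries lay between 0.921-fold and 1.08-fold of their group mean for Hspa5, but reached 1.41-fold for Hspa8 in the hippocampus (animal 2) and 1.44-fold for Hspb1 in the frontal cortex (animal 2). In all 3 regions, mutant animal 2 was the highest mutant for 2 members, Hsp90aa1 and Hspa8 (8.66% of all genes). Mutant animal 3 was so for 2, Hspa5 and Pdia4 (4.77% of all genes).

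Other genes and markers moved with WT animal 1. Of the ER folding and degradation list, 10 of 24 genes were highest there in all 3 regions (Calr, Pdia3, Pdia6, Hyou1, Sdf2l1, Dnajb11, Dnajc3, Manf, Creld2 and Syvn1), and of the HSF1 and cytosolic cochaperone list 7 of 29 (Hsf1, Dnaja4, Dnajb2, Dnajb5, Stip1, Chordc1 and Cryab), where 8.79% of all genes were. The 8 chaperonin subunits and the 8 mitochondrial chaperones had 0 each, which is close to that share. Other animals also led these lists: mutant animal 2 was the highest mutant in all 3 regions for 9 of the 29 HSF1 and cochaperone genes (8.66% of all genes), and WT animal 3 the highest WT animal for 6 of the 24 ER genes (7.84% of all genes). The summed level of Cirbp and Rbm3, the RNA-binding proteins that are induced by cold, was lowest in WT animal 1. It was 47.5, 36.6 and 36.2 CPM in frontal cortex, striatum and hippocampus against 51.8 to 72.0 CPM in the other WT libraries. Immediate early genes, which respond to neuronal activity, summed to 1267, 1049 and 684 CPM in WT animal 1, the highest WT value of each region. Of these 10 genes, 2 (Egr1 and Arc) were highest there in all 3 (8.79% of all genes). Endothelial markers summed to 276, 245 and 238 CPM in that animal and to 167 to 236 CPM in the other WT libraries. Microglial markers summed to 400, 535 and 437 CPM, the highest WT value of each region. Oligodendrocyte markers (2026 and 7557 CPM) and the share of mitochondrially encoded counts (5.65% and 7.55%) were the highest WT values in the frontal cortex and hippocampus but not in the striatum. Choroid plexus and ependymal markers were highest of all hippocampus libraries in it (6145 CPM) but at 8.51 CPM in its frontal cortex, within the 5.83 to 12.2 CPM of the others, and at 55.9 CPM in its striatum. The part of these measures in the result was not tested.

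**Figure D4:**
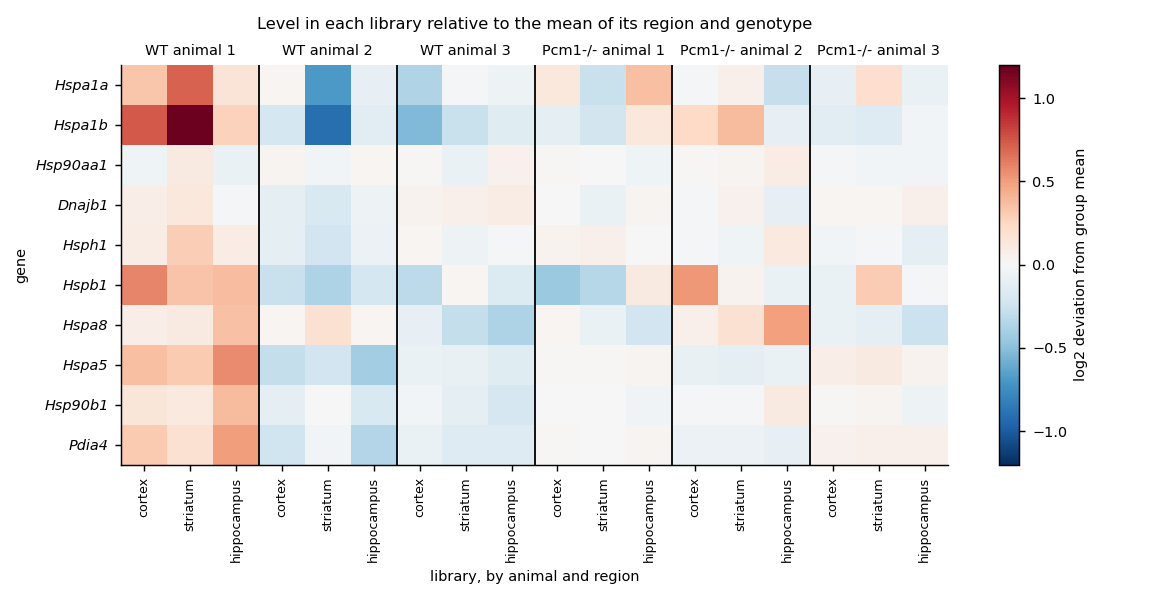
Log2 deviation of each library from the mean of its region and genotype (colour, red above and blue below) for the 10 genes (rows) and 18 libraries (columns, grouped by animal). WT animal 1 is red in most rows, the mutant animals are pale for the ER genes, and Hspa8 is red in the hippocampus of Pcm1-/- animal 2.

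After removal of the group means, the ER chaperones moved together over the 18 libraries, with Pearson r of 0.97 for Hspa5 and Pdia4, 0.89 for Hsp90b1 and Pdia4 and 0.85 for Hspa5 and Hsp90b1. Hspa1a and Hspa1b correlated at 0.87, Hsp90aa1 with none of the other heat-inducible genes above 0.40, and Hspa8 most with Hsp90b1 (0.66). These are descriptions over libraries that share animals and, for Hspa1a and Hspa1b, sequence. WT animal 1 was above its group mean for the 3 ER genes in all regions (Hspa5 log2 0.36, 0.32 and 0.56), while mutant Hspa5 deviations were −0.12 to 0.11. Hspa5 and Pdia4 deviated in the same direction in every mutant library. In the mutant hippocampus Hspa5 deviated by 0.03, −0.08 and 0.04, and Hsp90b1 by −0.04, 0.11 and −0.06. No r is given without WT animal 1, here or below. Of 11705 other genes with a mean log2 CPM of at least 2, those most like the mean of the 3 ER genes were Ddx58 (r = 0.96), Myo10 (0.96), Msn (0.96), Manf (0.96) and Fyb (0.95), with a median of −0.09 over all. Those most like the mean of the 6 heat-inducible genes were Rpl30 (0.90), Sgsm1 (0.89), Cxcl12 (0.89), Cldn5 (0.89) and Rnpep (0.88), with a median of −0.01.

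Hspa8 moved with another measure, the share of counts from mitochondrially encoded genes, a relation looked at after the data were seen. In the striatum the share was 6.72%, 7.19% and 5.81% in WT animals 1 to 3 and 5.41%, 6.46% and 4.86% in the mutants, the same order of libraries as for Hspa8. In the hippocampus it was 7.55%, 4.92% and 3.65% and 3.15%, 5.68% and 3.19%, beside 393, 313, 239, 232, 384 and 228 CPM of Hspa8. Over the 6 animals, Pearson r was 0.96 in the striatum (exact permutation p = 0.00556, two-sided) and 0.94 in the hippocampus (exact permutation p = 0.00278). Spearman's rho was 1 (exact permutation p = 0.00278, the smallest that 6 animals allow) and 0.94 (exact permutation p = 0.0167). Over the 30 relations of 10 genes and 3 regions, Benjamini-Hochberg adjustment gave 0.0833 for r in both regions and 0.0833 and 0.25 for rho, none under 0.05. With 6 animals and 30 relations a single relation at the smallest possible p also adjusts to 0.0833, so that this says nothing on the strength of the relation. Without the 2 libraries farthest from the median share, r was 0.97 and 0.98, and in the frontal cortex it was 0.59 with all 6 (exact permutation p = 0.207). The relation was not tested within genotypes. Of the other relations, Hsp90aa1 in the frontal cortex had r = −0.88 (exact permutation p = 0.0194, Benjamini-Hochberg adjusted 0.194) and rho = −0.71 (exact permutation p = 0.136, adjusted 0.681). Without the 2 farthest libraries r was −0.65, and there both measures also separate the genotypes. In the striatum Hsp90aa1 went the other way, with rho = 0.89 (exact permutation p = 0.0333, adjusted 0.333). Its r there was 0.66 (exact permutation p = 0.136, adjusted 0.579), and 0.77 without the 2 farthest libraries. Hsp90b1 in the hippocampus had r = 0.88 (exact permutation p = 0.0319, adjusted 0.240) and rho = 0.49 (exact permutation p = 0.356, adjusted 1), and r was −0.58 without the 2 farthest, so that it rests on those libraries.

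**Figure D5:**
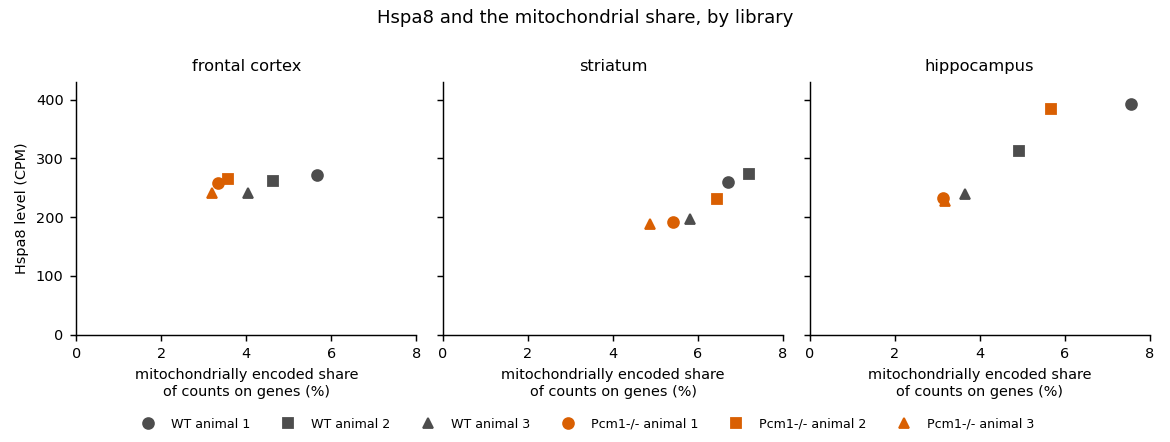
Hspa8 level in CPM (vertical axis, from 0) against the share of counts from mitochondrially encoded genes in percent (horizontal axis) for the 6 libraries of each region, with 1 symbol per animal. In the striatum and hippocampus libraries with a higher share have a higher level, and in the frontal cortex the level stays between 240 and 272 CPM over shares of 3.20% to 5.65%.

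The wider chaperone network was followed in lists of other genes. Between genotypes, the list of HSF1 regulators and cytosolic cochaperones (29 genes tested) had 0 calls by edgeR in each region, with 2, 4 and 3 genes at an unadjusted p under 0.05 in frontal cortex, striatum and hippocampus, where 15.3%, 13.5% and 9.89% of all genes were. DESeq2 called 1, Cryab, in the striatum and in the counts summed per animal. Cryab, a small heat shock protein that is abundant in oligodendrocytes, averaged 83.0 CPM in mutant and 133 CPM in WT striatum (n = 3, log2 −0.67 ± 0.17, edgeR adjusted p = 0.196). Its hippocampus values were 73.4 ± 8.19 and 122 ± 46.6 CPM (SD, log2 −0.75 ± 0.25, adjusted p = 0.429). Summed oligodendrocyte markers there were 4424 to 7173 CPM in mutant and 7303 to 7395 CPM in WT striatum, and 2955 to 4748 and 3936 to 7557 CPM in the hippocampus. Their part in the difference was not tested. The 8 subunits of the chaperonin TRiC, which folds actin and tubulin, and the 8 mitochondrial chaperones had 0 calls in each region by edgeR and by DESeq2, and 0 genes at an unadjusted p under 0.05.

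Of 24 genes of ER folding and degradation, 1 passed for frontal cortex and 0 for striatum and hippocampus by edgeR and by DESeq2, with 4, 2 and 1 at an unadjusted p under 0.05, beside the shares of all genes just given and 1.74% of all genes called in the frontal cortex. Dnajb9 (ERdj4, a J-domain cochaperone of Hspa5) rose from 50.5 ± 2.59 CPM in WT to 62.9 ± 1.03 CPM in the mutant frontal cortex (log2 0.31 ± 0.055, edgeR adjusted p = 0.0361). Of 11 regulators of the unfolded protein and integrated stress responses, only Eif2ak3 (PERK, an ER stress sensor) passed there, from 33.5 ± 1.36 to 42.1 ± 1.60 CPM (log2 0.32 ± 0.060, adjusted p = 0.0394), and 0 passed in the other regions by either tool. DESeq2 also called Eif2ak3 in the summed counts. Dnajb9 lost the call in 4 of 6 fits without 1 library (WT 2 or any mutant library, adjusted p of up to 0.154) and Eif2ak3 in 5 of 6 (all but WT 3, up to 0.230). Their log2 fold changes in these fits were 0.29 to 0.35 for both. With lane as a covariate the adjusted p-values were 0.0786 and 0.127 (log2 0.35 and 0.30), and in a single fit of all 18 libraries Dnajb9 did not pass (0.0630, log2 0.32). Other measures separated the genotypes in the same frontal cortex libraries. The mitochondrial share was 3.20% to 3.56% in mutant and 4.05% to 5.65% in WT libraries, and summed neuronal markers were 10917 to 11237 and 9184 to 10467 CPM (2 of 6 genes called). Microglial markers were 256 to 290 and 298 to 400 CPM (5 of 5 genes at an unadjusted p under 0.05, 0 called), and blood markers 29.8 to 63.2 and 88.1 to 142 CPM (3 of 3, 0 called). Oligodendrocyte markers were 1363 to 1441 and 1505 to 2026 CPM (3 of 4, 0 called). Choroid plexus and ependymal markers were 5.83 to 7.24 and 7.48 to 12.2 CPM (1 of 4, 0 called). Astrocyte and endothelial markers overlapped. Their part in the Dnajb9 and Eif2ak3 differences was not tested.

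Between regions, 17 of 29 HSF1 and cochaperone genes were lower and 8 higher in the striatum than in the frontal cortex (32.5% and 33.5% of all genes, 66% in all). Bag2, an Hsp70 nucleotide exchange factor, was lower there by log2 −1.29 ± 0.10 and Dnajb4, an Hsp40, higher by log2 0.55 ± 0.055. Striatum against hippocampus gave 18 lower and 3 higher (28.7% and 28.3% of all genes), with the testis-enriched Hsp70 Hspa2 at 37.0 ± 4.22 and 79.5 ± 8.05 CPM (SD, n = 6; log2 −1.11 ± 0.068). Hippocampus over frontal cortex gave 8 higher and 6 lower (28.5% and 28.2% of all genes), and Bag3, a partner of Hsp70 in selective autophagy, was higher by log2 0.90 ± 0.086. Of 24 ER genes, 7 were higher and 5 lower in the striatum than in the frontal cortex (33.5% and 32.5% of all genes), among them the disulfide isomerases P4hb (log2 0.57 ± 0.048) and Txndc5 (log2 0.50 ± 0.033), both higher. The hippocampus against the frontal cortex gave 6 higher and 5 lower, and striatum against hippocampus 7 higher and 5 lower, beside the same shares of all genes as above. Of the 11 stress-response regulators, Atf4, the main factor of the integrated stress response, was at 62.0 ± 2.90 CPM in the striatum and 106 ± 7.30 CPM in the frontal cortex (log2 −0.77 ± 0.044), with 4 genes higher and 4 lower in all. Of the same list, 3 were higher and 7 lower in the hippocampus than in the frontal cortex (28.5% and 28.2% of all genes). The striatum against the hippocampus gave 4 higher and 4 lower (28.3% and 28.7%). For striatum against frontal cortex, 2 of 8 TRiC subunits were higher and 2 lower, and of 8 mitochondrial chaperones 3 were higher and 2 lower (33.5% and 32.5% of all genes). Striatum against hippocampus gave 2 TRiC subunits higher and 4 lower (28.3% and 28.7% of all genes).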

How the data were processed

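RNA from 18 tissue samples was sequenced, and the deposited values are counts of reads per Ensembl gene and library. The authors made these counts by trimming with Trim Galore and cutadapt, aligning with STAR to GrCm38r73, keeping reads with a single location and counting with HTSeq. Versions and the strand setting are not given in the sources used here. Samples were grouped by the labels, and animals were followed across regions by the codes in the names of the deposited files.

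Rows that name no gene were left out of library sizes and tests, and 86.8% to 89.2% of the reads in the files remained. Symbols, positions and exon lengths came from GENCODE (36723 of 38561 identifiers matched), and sequences from RefSeq. Genes that reached 10 counts in any library were tested with edgeR 4.0.16 (R 4.3.3) by the quasi-likelihood test after TMM scaling, with Benjamini-Hochberg adjustment over all 17545 genes and a threshold of 0.05. Genotypes were compared in each region and in counts summed per animal, and regions with animal as a block. CPM are TMM-scaled, and correlations used log2 CPM with a prior count of 2. TPM used the length of the union of exons. Alternatives were DESeq2 1.42.0, its size factors, other filters, lane, replicate or animal blocks, 1 genotype alone and each library left out. The edgeR tests of genotype in each region, of striatum against frontal cortex and of the interaction were tried on simulated counts with known changes. The other steps were not. Exact tests used scipy 1.17.1, tables pandas 2.3.3 and numpy 2.4.6 in Python 3.11.15, and plots matplotlib 3.10.9.

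The 10 genes, the other lists and the rule for naming list genes were chosen with earlier results of these data known. Of each list, at most 4 genes past the threshold with the smallest p, or for genotypes with none past it at most 2 with the smallest unadjusted p, could be named with values, and the 5 genes most like the mean of the heat-inducible and of the ER members were named. Of the list of HSF1 regulators and cochaperones, Hspa14 was not matched. Intervals cover 95%. The depth of 24950537 to 33405081 counts per library left few reads on Hspb1, Hspa1a and Hspa1b, and each genotype had 3 animals.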

Additional observations from a re-analysis of the deposited data

How the results depend on the processing

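No member passed the genotype test in any region or in the summed counts under any alternative or without any 1 library, and 221 of 230 genotype values under other settings kept their direction. With lane as a covariate, frontal cortex differences changed sign for Hspa1a (0.19), Hspa1b (0.34), Hspb1 (0.21), Hspa8 (0.020) and Pdia4 (0.10), and in the hippocampus for Hsph1 (−0.0071). Hsp90aa1 in the hippocampus was −0.0030 with DESeq2 and −0.0027 with its size factors. Replicate numbers were not taken as pairs: 5 of 9 same-numbered pairs correlated above 0.1, from −0.27 to 0.51. WT striatum replicates 1, 2 and 3 are animals 3, 1 and 2, so that the striatum numbers do not follow those of the other regions, and numbered by animal 6 of 9 pairs are above 0.1, from 0.043 to 0.51. The block below uses the labels' numbers. The replicate block turned Pdia4 in the striatum to 0.0027 and called 665, 3 and 9 genes in frontal cortex, striatum and hippocampus, where 306, 5 and 3 were called without it, and 0 members. DESeq2 called 690, 488, 220 and, in the summed counts, 1198 genes (243 with edgeR). Without a filter on low counts 544 frontal cortex and 65 striatum genes passed, a single fit of all 18 libraries gave 176, 54 and 205, and lane as a covariate gave 29 in the frontal cortex. The interaction gave 0 genes, 2 without the animal block, 155 with DESeq2 and 18 without a filter. Without 1 library the counts ran from 11 to 825 in the frontal cortex, 2 to 5 in the striatum, 1 to 11 in the hippocampus, 4 to 398 in the summed counts and 0 to 25 for the interaction, with 0 members in each.

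Between regions, 191 of 210 member values kept direction and side of the threshold. With WT libraries alone, 5 members passed for striatum and frontal cortex, 6492 genes passed for hippocampus and frontal cortex and 6160 for striatum and hippocampus, and signs changed for Hspa5 (hippocampus over frontal cortex, 0.021) and Pdia4 (striatum over hippocampus, −0.013). With mutant libraries alone they changed for Hspa1a (0.036) and Hsp90b1 (−0.014) in hippocampus over frontal cortex and Hsph1 (−0.018) in striatum over hippocampus. Without the animal block 1 member passed for hippocampus and frontal cortex. Without WT animal 1, an alternative chosen after seeing the data, Hsp90b1 (hippocampus over frontal cortex) was −0.019, Hsph1 (striatum over hippocampus) −0.0059, and Hsp90aa1 (−0.10, adjusted p = 0.0467) and Pdia4 (0.12, adjusted p = 0.0413) passed for these comparisons. Without 1 library, 7 to 10, 2 to 3 and 5 to 6 members and 11024 to 11717, 9232 to 10064 and 9280 to 9963 genes passed for striatum and frontal cortex, hippocampus and frontal cortex, and striatum and hippocampus. The cause of these changes was not tested. Hspb1, Hspa1a and Hspa1b had the fewest reads, and Hspa1b also varied between WT animals (92, 21 and 32 reads in striatum animals 1 to 3). Differences within the stated intervals were not detectable.

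Some genotype differences, none of them called, changed sign when 1 library was left out. These were, with the lowest and highest log2 fold change, in the frontal cortex Hspa1a (−0.21 to 0.14), Hspa1b (−0.38 to 0.34), Hspb1 (−0.45 to 0.30), Hspa8 (−0.073 to 0.014), Hspa5 (−0.080 to 0.25), Hsp90b1 (−0.023 to 0.10) and Pdia4 (−0.17 to 0.11). In the striatum they were Hspa1a (−0.41 to 0.34), Hspa1b (−1.11 to 0.13), Dnajb1 (−0.00069 to 0.15), Hsph1 (−0.18 to 0.086), Hspb1 (−0.30 to 0.073), Hsp90b1 (−0.083 to 0.033) and Pdia4 (−0.079 to 0.10). Hippocampal ones were Hspa1a (-8.4e-05 to 0.35), Hsp90aa1 (−0.035 to 0.025), Hspa8 (−0.46 to 0.0093), Hspa5 (−0.29 to 0.24), Hsp90b1 (−0.23 to 0.10) and Pdia4 (−0.33 to 0.13). For counts summed per animal they were Hspa1a (−0.034 to 0.26), Hspa1b (−0.19 to 0.35), Dnajb1 (−0.023 to 0.084), Hsph1 (−0.11 to 0.051), Hspb1 (−0.31 to 0.10), Hspa5 (−0.12 to 0.26), Hsp90b1 (−0.11 to 0.065) and Pdia4 (−0.19 to 0.10). Between regions they were Hspa1a (−0.20 to 0.011) and Hsp90b1 (−0.012 to 0.070) for hippocampus over frontal cortex, and Hsph1 (−0.0053 to 0.082) and Pdia4 (−0.0084 to 0.093) for striatum over hippocampus.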

Other observations

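Lists outside the chaperone network were followed because they respond to handling and activity. Of 10 immediate early genes, which respond to neuronal activity, edgeR called 0 between genotypes in each region, with 4, 5 and 7 at an unadjusted p under 0.05 in frontal cortex, striatum and hippocampus, where 15.3%, 13.5% and 9.89% of all genes were. DESeq2 called Dusp1 in the frontal cortex, Fosb, Egr1 and Nr4a1 in the striatum, Junb, Egr2 and Nr4a1 in the hippocampus, and Junb and Nr4a1 in counts summed per animal. These genes are named after their values were seen. Their median log2 fold change was 0.18, 0.37 and 0.48, and Pcm1-/- animal 2 was the highest mutant animal in all 3 regions for 6 of them (8.66% of all genes). All 10 passed the edgeR test as lower in the hippocampus than in the frontal cortex, as 28.2% of all genes did. Of 6 glucocorticoid-induced genes edgeR called 0 between genotypes, with 1, 2 and 2 at an unadjusted p under 0.05, and DESeq2 called Per1 in the striatum and Fkbp5 and Per1 in the summed counts. WT animal 3 was the highest WT animal in all 3 regions for 3 of the 6, Sgk1, Tsc22d3 and Per1 (7.84% of all genes). Cirbp and Rbm3 passed in no genotype comparison by edgeR or DESeq2, with 0, 1 and 0 at an unadjusted p under 0.05, and both passed as lower in the striatum than in the frontal cortex (32.5% of all genes).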
